A study of Mus musculus with 6 samples.

Results

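Interferons reach the cell through a short relay, and 9 of its genes are described here in GC-1spg cells, an immortalised mouse line derived from type B spermatogonia. They were taken by symbol from the deposited mRNA table: the receptor chains Ifnar1, Ifnar2, Ifngr1 and Ifngr2, the receptor-bound kinases Jak1, Jak2 and Tyk2, the transcription factor Stat2 and the feedback inhibitor Socs1. All 9 were found among the 22298 genes of the table, and all 9 had enough counts to be tested, as did 13082 genes in all. The study compared 3 libraries of cells given a control siRNA (si-NC) with 3 of cells given an siRNA against Mettl3 (si-METTL3), the gene of the catalytic subunit of the m6A methyltransferase. All cells were of this 1 line, were grown in serum and, by the sample records, were transfected and collected after 48 h. The labels also tag the si-NC libraries as untreated and print the same siRNA sequence for both arms. The control sequence is therefore not known, and what untreated means here is not stated. No source says whether replicates were separate cultures, so each p-value is set against the spread of these 6 libraries alone, which may be technical.

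Type I interferons bind IFNAR1 paired with IFNAR2, on which the kinases TYK2 and JAK1 sit, and interferon-gamma binds IFNGR1 paired with IFNGR2, on which JAK1 and JAK2 sit. Activated kinases phosphorylate STAT proteins. A complex holding STAT2 and IRF9, called ISGF3, then binds interferon-stimulated response elements (ISRE), and STAT dimers bind gamma-activated sequences (GAS). SOCS1 is made in response to the signal and blocks the kinases, and several genes of the relay are themselves targets of interferon in many cell types.

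The mRNA table held 22146057 to 37698956 counts per library. Mettl3 had 606, 578 and 683 counts in the si-NC controls (replicates 1, 2 and 3, the order kept throughout), against 142, 134 and 136 in si-METTL3, so that its log2 fold change was -1.79 (SE 0.14) at an edgeR adjusted p of 0.000579. The spermatogonial label rests on few markers in these libraries: of 16 listed, Sall4 and Nanos2 had 0 counts in every library, the germ cell genes Ddx4 and Dazl had at most 7, and 8 had enough counts to be tested, among them Uchl1, Itga6 and Cd9. Of these 8, 2 rose in si-METTL3, Gfra1 (log2 fold change 0.65, edgeR adjusted p = 0.0389) and Itga6 (0.59, edgeR adjusted p = 0.00449), and 0 fell. Of all 13082 genes tested, 18.9% were called in either direction and 1134 rose. Genes typical of lung were higher in 4 of the libraries. The 14 listed lung genes, led by the surfactant gene Sftpc, summed to 3.56 and 2.02 CPM (counts scaled to a common effective library size, as edgeR gives them) in si-NC replicates 1 and 2, to 65.7 in si-NC replicate 3 and to 98.7, 97.9 and 66.5 in si-METTL3. The 16 listed immune genes summed to 6.70 and 7.76 CPM, then 22.7, and 30.5, 32.7 and 24.5, in the same order. The T cell gene Cd3g was the only 1 of these 16 at 0 in every library. Listed blood genes, 6 of them in the table, summed to 0.627 and 0.862 CPM, then 12.2, and 18.9, 15.9 and 12.5. The 8 listed endothelial genes summed to 15.71 and 15.99 CPM, then 24.68, and 28.44, 27.05 and 24.06. Where the lung, immune, blood and endothelial transcripts came from was not tested. In such bulk RNA a change in the number of cells of a type and a change in RNA per cell cannot be told apart.

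Of the 9 genes, Stat2 and Socs1 fell in si-METTL3 (2.71-fold and 2.93-fold), whereas the 4 receptor chains and 3 kinases did not pass the test (edgeR adjusted p under 0.05). Across all tested genes 18.9% were called and 10.2% were called lower. The share of the 9 called in either direction lies close to that of the table. Both calls were lower, 2 of 9, which is above the 10.2% but rests on 2 genes. The median log2 fold change of the 9 was 0.10, against 0.03 over all genes tested. The levels of the 3 si-NC libraries did not overlap those of the 3 si-METTL3 libraries for 3 of the 9, Stat2 and Socs1 (lower) and Jak1 (higher), while 41.5% of all tested genes showed no overlap.

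Levels between genes were compared as FPKM, which the authors scaled to transcript length. Jak1 had the highest level, with 32.4, 36.1 and 28.5 FPKM in the controls, against 36.7, 36.4 and 38.3 in si-METTL3. Its mean over the 6 libraries, 34.7 FPKM, exceeded that of 81.9% of tested genes. Ifnar2 (mean 22.3 FPKM) and Ifnar1 (21.0) came next. Their order was clear in si-NC, where Ifnar2 had 23.1 to 25.9 FPKM and Ifnar1 18.9 to 22.1, but in si-METTL3 the values overlapped, at 19.1 to 22.7 and 20.65 to 22.3. Ifngr1 (15.9), Jak2 (14.5) and Ifngr2 (13.7) followed, and their library values overlapped. Tyk2, with a mean of 3.52 FPKM, lay well under the other kinases. Stat2 (1.40) and Socs1 (0.692) were the lowest of the 9, above 20.8% and 14.7% of tested genes. In si-NC the lowest Stat2 library, at 1.44 FPKM, was above the highest Socs1 library, at 1.11, and in si-METTL3 every Stat2 library (0.56 to 1.11) was above every Socs1 library (0.27 to 0.49).

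**Figure D1:**
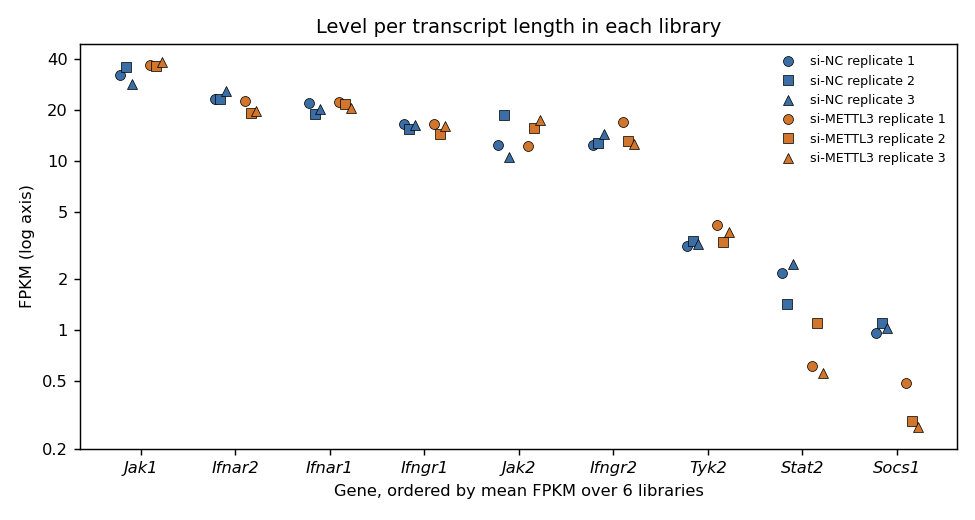
Each point is the FPKM of 1 gene in 1 library on a log axis, with genes ordered from left to right by their mean over the 6 libraries, si-NC in blue and si-METTL3 in orange. The receptors, Jak1 and Jak2 lie between 10.5 and 38.3 FPKM in both groups, and the 2 groups separate for Stat2 and Socs1 at the low end.

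Stat2 encodes the STAT that, with IRF9, carries the type I interferon signal to ISRE sites. It lies on the plus strand of chromosome 10 (128270559 to 128292849, GRCm38) and overlaps no other annotated gene. It had 411, 230 and 496 counts in the controls, against 104, 133 and 75 in si-METTL3, which is 11.7, 7.63 and 13.5 CPM against 3.25, 5.93 and 3.04. Replicate 2 was the lowest library of si-NC and the highest of si-METTL3, and the groups still did not overlap. The mean went from 10.95 ± 3.02 to 4.07 ± 1.61 CPM (SD, n = 3), a log2 fold change of -1.44 (SE 0.32, 95% interval -2.18 to -0.69, edgeR adjusted p = 0.0232), or 2.71-fold lower. This call depended on which library was left out, in fits that hold fewer samples. It held without si-NC replicate 2 (edgeR adjusted p = 0.00856) or si-METTL3 replicate 2 (0.0282). It was lost without replicate 1 (0.0806) or 3 (0.0565) of si-NC, and without replicate 1 (0.0684) or 3 (0.0888) of si-METTL3. The direction was kept, with log2 fold changes from -1.80 to -1.27 over the 6 fits. Set against si-NC replicate 3 alone, the control that shares the lung signal, the log2 fold change was -1.74. Values against this 1 library are given without a p, here and for other genes, since all spread would come from si-METTL3.

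Socs1 encodes an inhibitor that docks on the JAK kinases and blocks their activity. It sits on chromosome 16, minus strand (10782240 to 10785536, GRCm38) and also overlaps no other annotated gene. Counts were 117, 113 and 131 in the controls, against 52, 22 and 24 in si-METTL3, or 3.33, 3.75 and 3.57 CPM against 1.63, 0.98 and 0.974. The si-NC libraries lay close together, and si-METTL3 replicate 1 was the highest of its group at less than any si-NC library. The mean went from 3.55 ± 0.207 to 1.19 ± 0.375 CPM (SD, n = 3), a log2 fold change of -1.55 (SE 0.25, 95% interval -2.14 to -0.96, edgeR adjusted p = 0.00908), or 2.93-fold lower. The call held in all 6 fits that left out a library, with log2 fold changes from -1.88 to -1.43 and adjusted p up to 0.0469. The log2 fold change against si-NC replicate 3 alone was -1.56. The authors' deposited table lists the same direction for both genes, with log2 fold changes of -1.41 for Stat2 and -1.56 for Socs1. DESeq2 gave adjusted p of 0.000118 for Stat2 and 0.000121 for Socs1, so the size of the p-values depended on the method.

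The promoters of the 9 genes were searched for matches to the sites that the relay acts on, in RefSeq windows of 300 bases (250 before the transcription start and 50 after it, GRCm38.p6), and all 9 had a window. The ISRE-like motif was GAAA, any 2 bases and GAAA, on either strand, and the GAS-like motif was TTC, any 3 bases and GAA, which reads alike on both strands. The ISRE-like motif was found in 2 of the 9 windows, those of Stat2 and Socs1, while 3.44% of all 32851 windows held it. The GAS-like motif was found in Ifnar2 (positions -214 to -206 from the start) and Ifnar1 (-5 to 4), against 8.30% of all windows. The windows of Ifngr1, Ifngr2, Jak1, Jak2 and Tyk2 held neither, which says only that these letters are not in these windows. Below are the 250 bases before the start of the 2 genes that fell, and 120 bases before that of Jak1, the gene at the highest level, as a window with no match. Capitals mark ISRE-like matches, and each sequence reads in the direction of its gene. Stat2 is chr10:128270248-128270497 (plus strand), Socs1 is chr16:10785537-10785786 (minus strand) and Jak1 is chr4:101265224-101265343 (minus strand).
Stat2: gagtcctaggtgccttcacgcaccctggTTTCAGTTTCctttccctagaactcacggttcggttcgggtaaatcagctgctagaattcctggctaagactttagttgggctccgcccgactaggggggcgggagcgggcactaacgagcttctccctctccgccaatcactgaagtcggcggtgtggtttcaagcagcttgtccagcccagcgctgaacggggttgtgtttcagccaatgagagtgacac
Socs1: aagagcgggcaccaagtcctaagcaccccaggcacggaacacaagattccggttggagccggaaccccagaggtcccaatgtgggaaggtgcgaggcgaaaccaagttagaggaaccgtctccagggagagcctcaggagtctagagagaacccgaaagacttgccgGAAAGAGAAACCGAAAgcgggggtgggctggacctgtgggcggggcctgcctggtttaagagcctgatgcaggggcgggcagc
Jak1: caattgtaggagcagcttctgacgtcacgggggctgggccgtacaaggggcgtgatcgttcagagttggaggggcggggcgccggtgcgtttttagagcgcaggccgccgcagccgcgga

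The Stat2 match stands far from the start, at -222 to -213, and reads as the reverse complement of the motif. Socs1 holds 2 matches that share bases, at -83 to -74 and -77 to -68. Among 20 listed targets of ISGF3, 13 had a promoter window and 9 of these held the ISRE-like motif. In the 6 lists of further relay genes described below, only Stat4, which had too few counts to be tested, and Rack1 held it. Not every gene of those lists had a window. Irf9, which fell (log2 fold change -1.58), had a window without a match. Isg15, which encodes a ubiquitin-like protein, and Ifit3, which encodes an antiviral RNA-response protein, are shown as examples chosen after their values were seen, each as 40 bases around the match nearest the 5′ end of the window. Isg15 (chr4:156200867-156200906, minus strand) holds 3 matches that share bases, in the same orientation as those of Socs1, and the match shown for Ifit3 (chr19:34583363-34583402, plus strand) has the orientation of the Stat2 one. The Stat2 stretch is chr10:128270266-128270305 and the Socs1 stretch chr16:10785590-10785629.
Stat2: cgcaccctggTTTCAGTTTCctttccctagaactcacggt
Ifit3: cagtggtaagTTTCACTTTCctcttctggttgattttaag
Socs1: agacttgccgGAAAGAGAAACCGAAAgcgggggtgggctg
Isg15: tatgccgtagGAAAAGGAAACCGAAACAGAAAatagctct

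**Figure D2:**
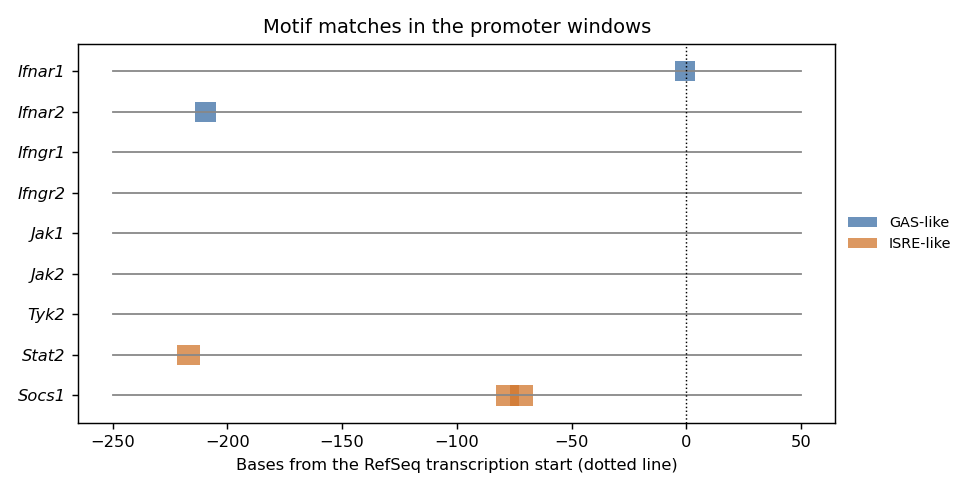
Each grey line is the RefSeq promoter window of 1 gene, from 250 bases before to 50 bases after the transcription start (dotted), and each bar is a motif match, orange for ISRE-like and blue for GAS-like. Orange bars appear in Stat2 and Socs1, where the Socs1 pair overlaps, and blue bars in Ifnar1 and Ifnar2.

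No receptor chain passed the test. Ifnar2, Ifnar1 and Ifngr2 lie in a run on the plus strand of chromosome 16 (GRCm38): Ifnar2 (91372783 to 91405589), Il10rb, Ifnar1 (91485238 to 91507441) and Ifngr2 (91547072 to 91565623), and Ifngr1 lies on chromosome 10 (19591949 to 19610229). Ifnar2, the chain that binds interferon most tightly, had 48.1, 43.0 and 51.4 CPM in the controls, against 43.2, 37.4 and 39.1 in si-METTL3. The lowest si-NC library was just under the highest si-METTL3 one, so the groups touched. Its log2 fold change was -0.25 (SE 0.10, 95% interval -0.49 to -0.01) and it did not pass (edgeR adjusted p = 0.122), except without si-NC replicate 2 (-0.32, adjusted p = 0.0323). A predicted gene, Gm21970, overlaps Ifnar2 and Il10rb on the same strand and had 4 counts in 1 library and 0 in the others.

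Ifnar1, the chain that brings TYK2, had 95.2, 82.3 and 87.7 CPM in the controls, against 97.9, 96.3 and 94.2 in si-METTL3. The si-METTL3 libraries lay close together and overlapped si-NC through its replicate 1. The log2 fold change was 0.12 (SE 0.08, 95% interval -0.06 to 0.30, edgeR adjusted p = 0.293). Il10rb, which lies between both genes and encodes a chain of the interferon-lambda and interleukin-10 receptors, stood at 0.05 on the log2 scale (SE 0.10, edgeR adjusted p = 0.749).

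Ifngr1, the ligand-binding chain for interferon-gamma, had 38.5, 36.6 and 39.0 CPM in the controls, against 41.0, 34.0 and 39.6 in si-METTL3, and the si-NC range lay inside that of si-METTL3. Its log2 fold change was 0.01 (SE 0.10, edgeR adjusted p = 0.970), and the 95% interval of -0.22 to 0.23 reaches 1.16-fold lower and 1.17-fold higher. Ifngr2, the chain that brings JAK2, had 52.0, 55.5 and 66.5 CPM in the controls, against 71.0, 58.5 and 57.4 in si-METTL3. A library in each group stood above the others, si-NC replicate 3 and si-METTL3 replicate 1, and the groups overlapped (log2 fold change 0.10, SE 0.13, 95% interval -0.19 to 0.40, edgeR adjusted p = 0.582).

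Among the kinases, Jak1, which serves both receptor types, had 182, 199.9 and 166 CPM in the controls, against 209, 209 and 219 in si-METTL3. Every si-METTL3 library was above every si-NC library, but the log2 fold change of 0.22 (SE 0.08, 95% interval 0.02 to 0.41) did not pass (edgeR adjusted p = 0.108). It passed without si-NC replicate 2 (0.29, adjusted p = 0.0168), and shrank to 0.03 (adjusted p = 0.822) when each library was corrected for transcript length. Against si-NC replicate 3 alone, the lowest control, it was 0.35. Jak1 is overlapped on the other strand by Raver2, which had 19 to 56 counts per library against 4699 to 6685 for Jak1.

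Jak2, the kinase of the interferon-gamma receptor, varied widely within both groups. It had 64.6, 96.3 and 55.1 CPM in the controls, against 61.8, 80.7 and 90.9 in si-METTL3, so the spread of si-NC covered all of si-METTL3. The log2 fold change was 0.11 with an SE of 0.23, and the 95% interval ran from -0.42 to 0.65 (edgeR adjusted p = 0.750). That interval reaches from 1.34-fold lower to 1.57-fold higher, so changes within that range remain compatible with these libraries. Tyk2, the kinase of IFNAR1, had 16.7, 16.02 and 16.6 CPM in the controls, against 20.2, 14.8 and 20.6 in si-METTL3, with si-METTL3 replicate 2 under the whole of si-NC and the other two above it (log2 fold change 0.17, SE 0.14, 95% interval -0.16 to 0.50, edgeR adjusted p = 0.411).

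**Figure D3:**
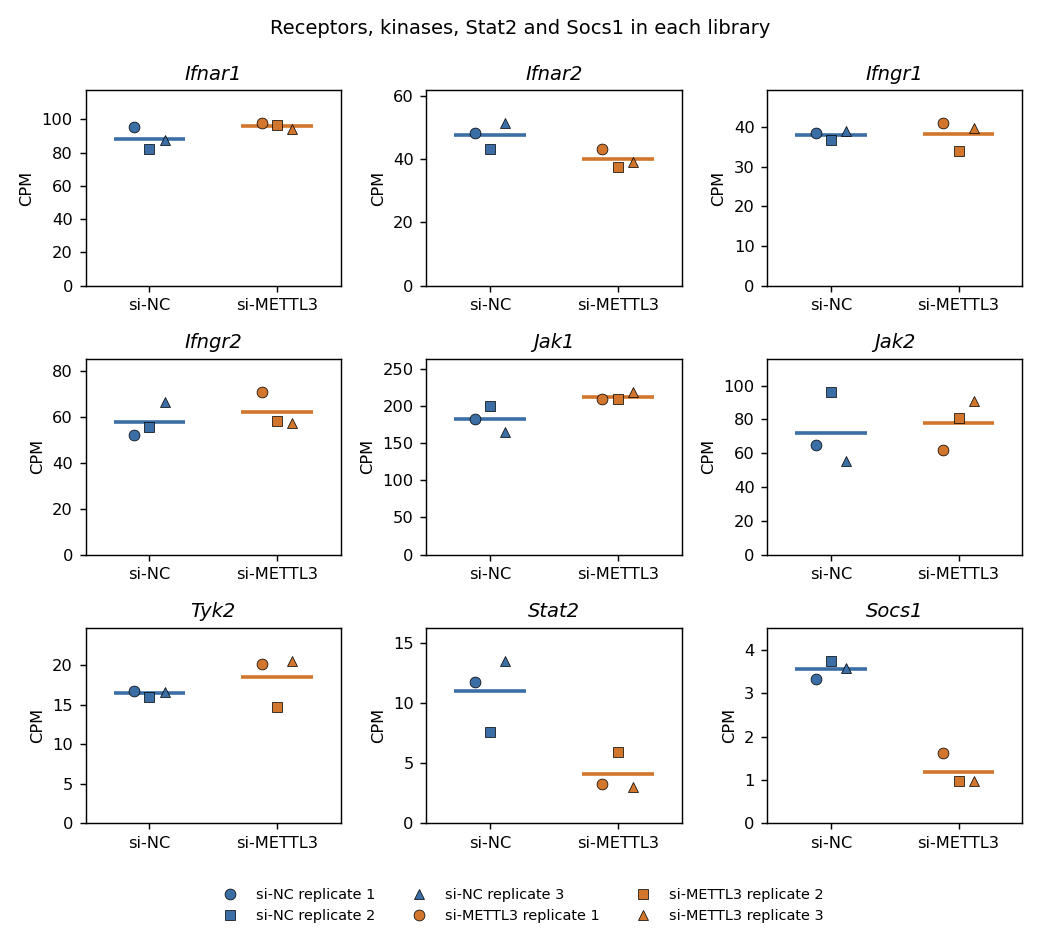
Each panel plots the CPM of 1 gene in the 3 si-NC (blue) and 3 si-METTL3 (orange) libraries from 0 upward, with marker shapes for replicate numbers and a horizontal line at each group's mean. Stat2 goes from a mean of 10.95 to 4.07 and Socs1 from 3.55 to 1.19 without overlap, Jak1 lies slightly higher in si-METTL3, and the other 6 genes overlap between the groups.

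The rest of the relay was read from 6 lists: other STATs with Irf9, Jak3 with the interferon-lambda and shared receptor chains, further SOCS genes, PIAS genes, phosphatases and proteins that sit on the receptors. Of the 33 tested genes reported from them, 4 rose, 8 fell and 21 did not pass, with a median log2 fold change of -0.07. Over all tested genes 18.9% were called and 10.2% were called lower, the shares to set beside each list count below. The number called of the 33 moved with single libraries, from 3 without replicate 2 of si-METTL3 to 18 without replicate 2 of si-NC. Leaving out replicate 3 of si-METTL3 gave 4, replicate 1 of si-METTL3 gave 7 and replicate 1 of si-NC gave 5.

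Irf9 and Usp18 both fell. Irf9, the DNA-binding partner of STAT2, had 88.5, 74.3 and 85.4 CPM in the controls, against 29.4, 27.7 and 26.2 in si-METTL3 (log2 fold change -1.58, SE 0.10, edgeR adjusted p = 0.000211). Its fall was close in size to that of Stat2 but far steadier between libraries. Usp18, which binds IFNAR2 and displaces JAK1 besides removing ISG15, had 101.0, 87.0 and 115 CPM in the controls, against 4.85, 4.63 and 3.45 in si-METTL3 (log2 fold change -4.55, SE 0.17, edgeR adjusted p = 5.42e-05). Both calls held in all 6 fits that left out a library.

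Stat3 and Stat6 changed in opposite directions. Stat3, which serves the interleukin-6 family, rose from 132 ± 8.83 to 177 ± 7.05 CPM (SD, n = 3), or by 0.43 on the log2 scale (edgeR adjusted p = 0.0121), and Stat6, which serves interleukin-4 and interleukin-13, fell from 148 ± 11.0 to 122 ± 3.51 (-0.28, edgeR adjusted p = 0.0454). Dropping 1 library at a time left Stat3 called in 3 of 6 fits and Stat6 in 1, and with no filter on low counts Stat6 was not called (edgeR adjusted p = 0.0516). Stat5a (0.18) and Stat5b (-0.21) did not pass, and as near copies of each other they may share reads. Jak3, a kinase best known from lymphocytes, rose from 5.27 ± 0.881 to 9.13 ± 0.188 CPM (0.79, edgeR adjusted p = 0.0146), with its call held in 3 of 6 such fits. The immune gene sum given above was also higher in si-METTL3, and its part in the Jak3 value was not tested. Against si-NC replicate 3 alone Jak3 had 0.54. Ifnlr1, the specific chain of the interferon-lambda receptor, stood at 0.37 on the log2 scale (SE 0.12, edgeR adjusted p = 0.0752).

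The SOCS genes did not move as a block. Beside the fall of Socs1, Socs7 (log2 fold change -0.80, edgeR adjusted p = 0.0183) and Socs2 (-0.58, edgeR adjusted p = 0.0188) fell, while Socs5 (0.58, edgeR adjusted p = 0.00290) and Socs3 (0.57, edgeR adjusted p = 0.0137) rose. Socs5 was the steadiest, with 42.4, 43.1 and 42.8 CPM in the controls, against 65.4, 62.9 and 63.6 in si-METTL3, and its call held in all 6 fits that left out a library, against 4 for Socs3, 4 for Socs7 and 2 for Socs2. By limma on log2(FPKM + 1) the calls of Socs7 (adjusted p = 0.0805) and Socs2 (0.0610) were lost. Cish (0.09), Socs4 (0.51) and Socs6 (-0.09) did not pass. Socs3, the feedback inhibitor of gp130 receptors, went from 99.98 ± 12.3 to 148 ± 8.48 CPM (SD, n = 3), so it was the SOCS gene with the highest CPM in both groups.

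None of 4 tested PIAS genes, which encode SUMO ligases that bind STATs, passed (log2 fold changes from -0.10 to 0.44). None reached an unadjusted p under 0.05 either (0 of 4), and DESeq2 called 0. Of 6 phosphatases, Ptpn11 (-0.41, edgeR adjusted p = 0.0120), which encodes SHP2, and Dusp3 (-0.30, edgeR adjusted p = 0.0417) fell, and dropping 1 library at a time left them called in 3 and 1 of 6 fits. Dusp3 also lost its call by limma on log2(FPKM + 1) (-0.19, adjusted p = 0.109). Of 8 receptor-associated genes, Rack1 (-0.32, edgeR adjusted p = 0.0479), which encodes a ribosomal scaffold also found on receptors, fell beside Usp18, but its call held in 1 of 6 such fits and was lost after the length correction (-0.23, edgeR adjusted p = 0.0701) and by limma on log2(FPKM + 1) (-0.30, adjusted p = 0.0632).

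**Figure D4:**
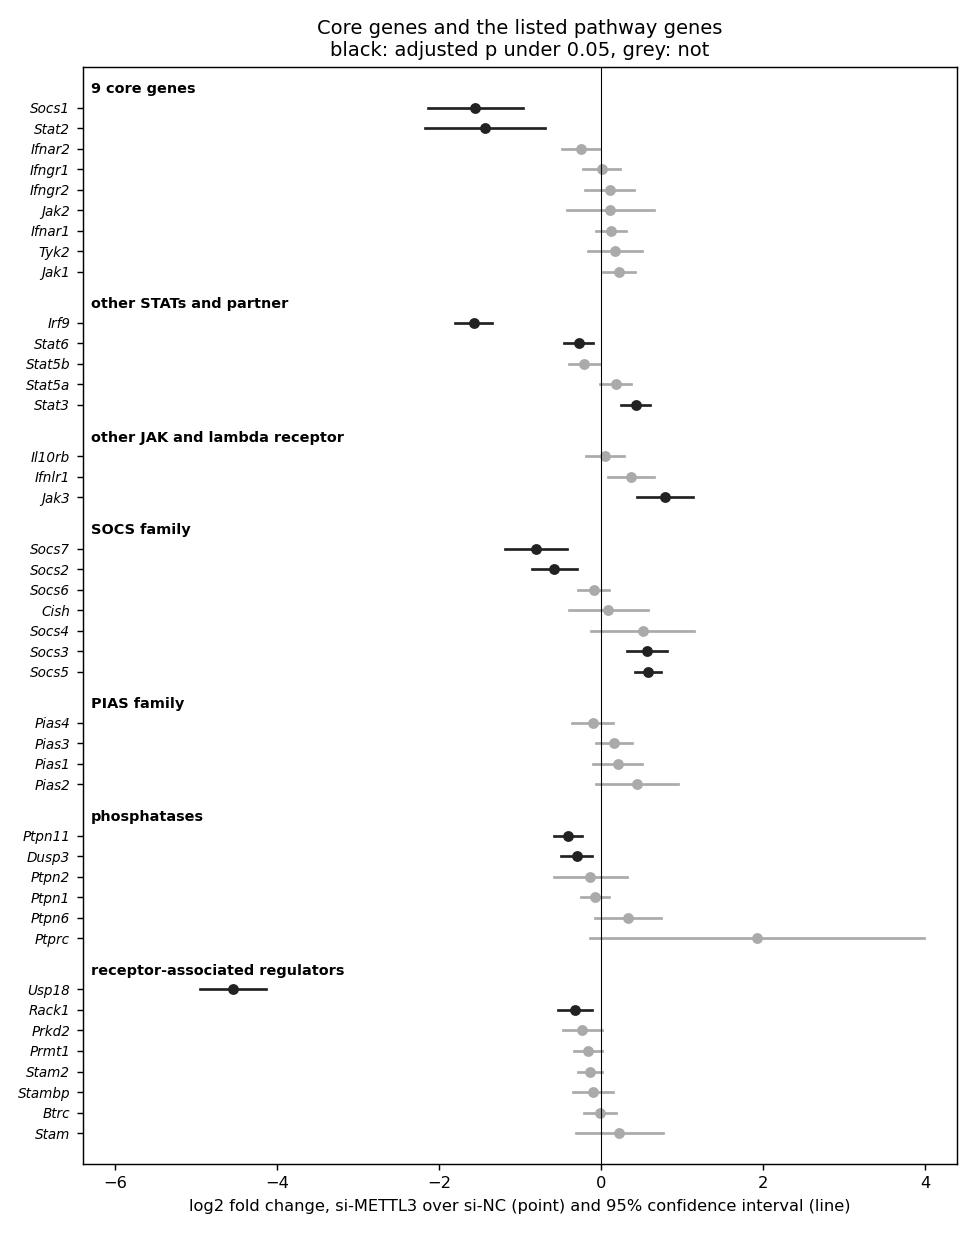
Points are log2 fold changes of si-METTL3 over si-NC and lines are 95% confidence intervals, for the 9 genes and the 6 lists, black where the adjusted p was under 0.05. Usp18 at -4.55, Irf9 at -1.58, Socs1 at -1.55 and Stat2 at -1.44 stand to the left of the 7 receptors and kinases among the 9 genes, whose points lie between -0.25 and 0.22.

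The ligands were nearly absent. Of 20 interferon genes, 15 had 0 counts in every library and none could be tested, the others being Ifnb1, Ifna2, Ifna4, Ifna5 and Ifnz. Together the 20 had 21, 7 and 13 counts in the controls, against 6, 5 and 3 in si-METTL3. Scaled for depth, that is 0.599, 0.232 and 0.354 CPM against 0.188, 0.223 and 0.122. Most were of Ifnb1, with 15, 6 and 12 counts against 6, 4 and 3. Its lowest si-NC library, at 0.199 CPM, was barely above its highest si-METTL3 library, at 0.188. The listed outputs of the relay were mostly lower. All 20 listed ISGF3-type targets fell (median log2 fold change -3.57), while 10.2% of all tested genes were called lower. The list was chosen with earlier results of these data known, so its count is a description. Usp18 (-4.55), also counted above among the receptor-associated genes, led it with the 2′-5′-oligoadenylate synthetase genes Oas1a (-4.35) and Oas2 (-4.34). In the fits that left out a library, 18 to 20 of the 20 were called. Oas1a and Gbp3 have near copies in the genome, so their values are uncertain where reads were shared.

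Of 18 tested GAS-type targets 11 fell and 1, Socs3, rose (median log2 fold change -1.50). The list had 7 calls without replicate 3 of si-METTL3 and 8 without replicate 2 of that group. It too was chosen with earlier results known, and 10.2% of all tested genes were called lower. The GTPase genes Igtp (-3.15), Irgm2 (-3.07) and Gbp3 (-2.78) led it, and many genes of this list are also known to respond to type I interferon. Of the 20 listed, tested or not, 17 had a promoter window, and of these 9 held the GAS-like and 8 the ISRE-like motif. These counts are per gene, and the 17 genes had 20 windows. Counted per window, 8.30% of all windows held the GAS-like and 3.44% the ISRE-like motif. The tested genes of the list that did not pass were Cd274 (-2.01, SE 0.76), Ciita (-1.06, SE 0.40), Psmb8 (-1.04, SE 0.31), Gbp5 (-0.92, SE 0.35), Nlrc5 (-0.61, SE 0.35) and Cd74 (1.11, SE 0.58). Cd274 had 63, 113 and 4 counts in si-METTL3, so its value moved to -3.09 (edgeR adjusted p = 0.0724) without replicate 2 of that group and to -1.46 (0.0836) without replicate 3. It passed by limma-voom (-2.95, adjusted p = 0.0467) and by limma on log2(FPKM + 1) (-1.08, adjusted p = 0.0222). Psmb8 passed by DESeq2 (-1.06, adjusted p = 0.0118) and without si-METTL3 replicate 1 (-1.42, edgeR adjusted p = 0.0353). Cd74, also an immune marker, passed without si-NC replicate 3 (2.19, edgeR adjusted p = 0.00882) and had 0.07 against that library alone.

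Of 17 tested receptor genes of other cytokines that use the same kinases, 2 rose and 0 fell by edgeR (median log2 fold change 0.23). Over all tested genes 18.9% were called and 10.2% were called lower, so the share called here was not above that of the table. At an unadjusted p under 0.05, 1 was lower by edgeR and 0 by DESeq2. The genes that rose were Il22ra1, the interleukin-22 chain that pairs with IL10RB, from 12.2 ± 2.41 to 25.5 ± 4.19 CPM (SD, n = 3), or by 1.06 on the log2 scale (edgeR adjusted p = 0.0111), and Lifr, the chain that binds leukaemia inhibitory factor, from 49.7 ± 10.8 to 101 ± 11.6 (1.03, edgeR adjusted p = 0.00940). The count was 5 without si-NC replicate 2 and 1 without si-METTL3 replicate 2. Against si-NC replicate 3 alone Il22ra1 had 0.82 and Lifr 1.35.

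The genes whose pattern over the 6 libraries was most like that of Stat2, by Pearson's r of log2(CPM + 1), were Txndc17 (r = 0.994), Tmem208 (0.992), Nbdy (0.991), Crtc2 (0.990) and Chd5 (0.989). Their log2 fold changes were small beside that of Stat2, from -0.45 for Chd5 to -0.16 for Crtc2, and 2 of the 5 passed the threshold, Tmem208 (-0.35, edgeR adjusted p = 0.0402) and Chd5 (-0.45, edgeR adjusted p = 0.0399). In all 5, as in Stat2, replicate 2 was the lowest si-NC library and the highest si-METTL3 library. Choosing genes by r favours such a shared order, so it is not a separate result. The points share their libraries and depth, and the values are a description.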

How the data were processed

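The 6 libraries (3 si-NC, 3 si-METTL3) were grouped by their labels. The authors deposited per gene raw counts and FPKM, with log2 fold changes and adjusted p-values of their own. The submitters' processing notes name fastp, Bowtie2, StringTie, RSEM and the build mm9, with no versions or roles. The unit of each column follows the file headers, and how strand and multi-mapping reads were counted is not stated in these sources.

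Counts were fitted as deposited with edgeR 4.0.16 in R 4.3.3 (filterByExpr, TMM, quasi-likelihood F-test of group, Benjamini-Hochberg over 13082 genes, threshold 0.05), after the script was tested on simulated data. CPM uses effective library sizes. SE and 95% intervals come from that fit, on the log2 scale. Alternatives were DESeq2 1.42.0, its size factors in edgeR, limma-voom (limma 3.58.1), no filter, limma on log2(FPKM + 1) and log2(FPKM + 0.1) with a mean of at least 0.5 FPKM, a replicate block, a length correction (lowess on length from counts and FPKM), each library left out, and, chosen after seeing the data, si-NC replicate 3 as the only control.

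Genes named were all members, the calls of the 6 relay lists with Irf9 and Usp18, the 3 largest calls per direction of the other lists, tested ISGF3-type and GAS-type genes without a call, ligands with counts, and the 5 genes most like Stat2 with a mean of at least 5 CPM. Stat4, Stat5a, Stat5b, Il10rb, Ifnlr1, Cish, Socs4, Socs6, Isg15, Ifit3 and the markers with counts were named besides. The members and lists were chosen with earlier results of these data known. One gene of the relay lists is not reported here and enters no list count. Positions are from GENCODE M21 (GRCm38), since the files hold none, and promoters from RefSeq (GRCm38.p6).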

Additional observations from a re-analysis of the deposited data

How the results depend on the processing

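Socs1 kept its direction under all 15 alternatives, and its call under each that kept at least 2 si-NC libraries. Fits with si-NC replicate 3 as the only control take their spread from si-METTL3 alone, so they give values and counts but no support for a call. Stat2 kept its direction under all 15 and lost its call under the replicate block (-1.45, edgeR adjusted p = 0.0716) and in 4 of the 6 fits without 1 library (-1.80 to -1.27). On the log2(FPKM + 1) scale, which understates changes of low genes, limma gave -0.78 for Stat2 and -0.59 for Socs1. The block also lowered the genes called in all from 2468 to 1273, the 9 genes called from 2 to 1 and the relay lists from 12 to 7, where Socs7 (adjusted p = 0.0518), Socs2 (0.0621), Dusp3 (0.0544), Stat6 (0.0808) and Rack1 (0.0819) were lost. On log2(FPKM + 0.1) limma did not call Socs7 (0.0858), Socs2 (0.0602), Dusp3 (0.112) or Rack1 (0.0587). Between libraries of the same number, the correlations of deviations from the group mean were 0.071, 0.20 and -0.31 for replicates 1, 2 and 3. Not every library correlated best with its own number, and the main fit assumed no pairing. Deviations from a mean of 3 libraries are tied to one another, so these values cannot tell whether the numbers mark shared batches. Leaving out 1 library gave 665 to 4917 genes called, 1 to 4 of the 9 genes, 3 to 18 in the relay lists, 7 to 12 of the GAS-type targets and 1 to 5 of the other receptors, of which si-NC replicate 3 as the only control left 1. Fewer samples enter these fits.

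Log2 fold changes near 0 changed sign. The length correction gave -0.0072 for Ifnar1, -0.020 for Ifngr2 and -0.054 for Jak2. Ifngr1 was -0.0018 in DESeq2, -0.0033 with no filter and -0.040 and -0.042 on log2(FPKM + 1) and log2(FPKM + 0.1). With si-NC replicate 3 as the only control Ifngr1 had -0.032, Ifngr2 -0.098, Il10rb -0.037 and Jak1 0.35. Without 1 library the ranges were -0.070 to 0.082 for Ifngr1, -0.021 to 0.19 for Ifngr2, -0.076 to 0.38 for Jak2, -0.016 to 0.069 for Il10rb, -0.33 to -0.21 for Ifnar2 and 0.13 to 0.29 for Jak1. The causes were not tested. Depth limits Socs1, with 22 to 131 counts per library, and the ligands most.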

Other observations

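The deposited lncRNA table lists 10 non-coding transcripts of 4 of the 9 genes: 6 of Jak1, 2 of Ifngr1, 1 of Ifnar1 and 1 of Ifngr2. Of these, 4 had 0 counts in every library, and no transcript passed 34 counts in any. The Jak1 transcripts summed to 39, 52 and 47 counts in the controls, against 42, 26 and 32 in si-METTL3. Those of Ifngr1 summed to 19, 8 and 16 against 3, 7 and 5. These sums are raw counts of libraries of unequal depth, and no test was run on them.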
